A study of Mus musculus with 24 samples.

Results

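The genes described here are 6 FGF ligands (Fgf1, Fgf2, Fgf7, Fgf10, Fgf13 and Fgf18) and the 4 FGF receptors (Fgfr1 to Fgfr4), 10 of the 37991 genes in the count table, chosen by symbol through the GENCODE M1 annotation. They were measured by total RNA sequencing in mammary tissue of female mice. The 12 PyMT samples came from FVB/N mice heterozygous for the MMTV-PyVT transgene, in which the MMTV long terminal repeat drives the polyoma virus middle T antigen in mammary epithelium. The 12 FVB samples came from age-matched FVB females without the transgene. There were 3 samples of each genotype at week 6 (hyperplasia in PyMT), week 8 (adenoma/MIN), week 10 (early carcinoma) and week 12 (late carcinoma). By the paper's methods, mammary tumors were taken from the PyMT mice and normal mammary glands from the FVB mice. Its pathology report found mostly tumor cells in the carcinoma samples, with a small part of stromal and muscle cells. Whole tissue was used, so fewer cells of a type and less RNA per cell cannot be told apart in any value below.

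FGFs are secreted signals that bind receptor tyrosine kinases together with heparan sulfate, and the receptors pass the signal through Frs2 and the RAS-MAPK cascade to ETS factors and feedback inhibitors. In the mammary gland, FGF10 from the stroma acts through the epithelial splice form of FGFR2, and this pair is needed for the mammary buds and for branching of the ducts. FGF7 binds the same form of FGFR2. FGF13 is an exception, since it stays inside the cell and binds sodium channels and microtubules rather than the receptors.

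The count of a sample added up to between 6969375 and 13516601 reads. In 13 of the 24 libraries, 6 PyMT and 7 FVB, the counts per gene came in packets of 8 to 25 reads, as duplicated reads give, so that low genes in these libraries rest on few molecules. The packets were not spread evenly. They were in every PyMT library of week 6, every FVB library of week 10 and every replicate 2 but that of PyMT at week 12. Packets thus cannot be told apart from age for PyMT at week 6 or FVB at week 10. Of the 33 zero counts among the 10 genes, 29 fell in these libraries, and so did all 17 of those outside Fgf18. Marker genes also moved with the genotype. Over the 4 weeks together, 8 of 8 fibroblast markers, 8 of 8 adipocyte markers and 7 of 7 endothelial markers were called lower in PyMT, 7 of 8 luminal markers were called higher, and 5 of 8 basal markers were called lower. Of all tested genes, 17.2% were called lower and 8.51% higher in this comparison. The summed level of the fibroblast markers was 21688 to 45543 normalised counts in PyMT and 50744 to 188557 in FVB. That of the adipocyte markers was 1314 to 16852 in PyMT and 48613 to 132307 in FVB, that of the endothelial markers 718 to 1971 against 4336 to 7821, and that of the basal markers 1479 to 6338 against 5532 to 17394. Of the basal markers, Krt5, Krt14, Krt17 and Trp63 overlapped, with medians of 411, 516, 70.3 and 342 in PyMT and 505, 563, 231 and 372 in FVB. Acta2, Myh11, Mylk and Oxtr were lower in PyMT without overlap, as were 7.22% of all tested genes. The luminal markers summed to 21161 to 40310 in PyMT and to 4341 to 19108 in FVB. The label of mammary tissue was thus met in both genotypes. Of the other lists, none of the 5 macrophage markers was called, the 1 lymphocyte marker tested was not called, and of the 5 Schwann cell markers 1 was called higher and 2 lower. The 7 skeletal muscle markers were all called lower by edgeR, but 0 of 7 were in the libraries without packets or by voom, and 2 of 7 without replicate 1 of every group. The median log2 fold change of the 7 was -4.64 by edgeR and 0.04 by voom. Their summed level was between 114291 and 510806 normalised counts in 4 FVB libraries (replicates 1 and 2 of week 6, replicate 3 of week 10 and replicate 1 of week 12), between 137 and 5026 in the other 8, and between 0 and 28698 in PyMT. The part that these cell types had in the results on the FGF genes was not tested.

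The promoters of 3 genes are shown because Fgf10 and Fgf7, ligands of the same receptor form, differed most in fold change over the 4 weeks together among the ligands tested, and because Fgf2 was the other abundant ligand of the normal gland. Each line gives the 250 bases before the transcription start in RefSeq (GRCm38.p6), 5′ to 3′, with matches to searched motifs in capitals.
Fgf10 (13:118714449-118714698, plus strand): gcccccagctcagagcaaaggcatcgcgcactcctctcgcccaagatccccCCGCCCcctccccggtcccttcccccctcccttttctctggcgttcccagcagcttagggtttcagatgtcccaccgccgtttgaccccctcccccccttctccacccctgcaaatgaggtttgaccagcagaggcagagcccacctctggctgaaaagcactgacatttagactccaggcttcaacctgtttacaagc
Fgf7 (2:126034408-126034657, plus strand): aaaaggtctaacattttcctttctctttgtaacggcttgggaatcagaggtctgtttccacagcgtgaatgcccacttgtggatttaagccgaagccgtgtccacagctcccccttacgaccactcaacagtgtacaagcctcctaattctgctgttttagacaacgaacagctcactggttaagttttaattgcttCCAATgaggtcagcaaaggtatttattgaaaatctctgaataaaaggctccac
Fgf2 (3:37348403-37348652, plus strand): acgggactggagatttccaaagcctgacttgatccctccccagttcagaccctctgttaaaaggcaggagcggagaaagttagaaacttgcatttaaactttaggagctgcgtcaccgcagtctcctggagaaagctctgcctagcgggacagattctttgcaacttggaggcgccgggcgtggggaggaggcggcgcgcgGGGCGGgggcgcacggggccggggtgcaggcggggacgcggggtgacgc
The motifs searched on both strands were the TATA box TATAAA, the letters CCAAT, the GC box GGGCGG and the ETS site CCGGAAGT, and no 2 matches overlapped in these windows. Fgf10 held 1 GC box, read here on the opposite strand, Fgf7 held 1 CCAAT and Fgf2 held 1 GC box. Among 32851 mouse promoters of the same length, 32.7% held a GC box, 33.8% a CCAAT, 12.4% the TATA box and 2.88% the ETS site. The GC content was 61.2% for Fgf10, 43.6% for Fgf7 and 62.4% for Fgf2, against a median of 52.4% over all promoters. The 3 windows held 8, 6 and 20 CpGs in the same order, and the median promoter held 6. A match of these letters is a description of the sequence and not a site shown to be bound.

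In the normal FVB gland, levels per kilobase of exon put Fgfr1 and Fgfr2 first among the receptors and Fgf10 and Fgf2 first among the ligands. On the scale of normalised counts per kilobase (counts over DESeq2's size factors, divided by exon length), Fgfr1 stood at 232 ± 43.2 (SD, n = 12) and Fgfr2 at 215 ± 45.0, whereas Fgfr3 stood at 19.7 ± 5.62 and Fgfr4 at 3.17 ± 3.42. Among the ligands, Fgf10 stood at 118 ± 52.1, Fgf2 at 112 ± 29.8, Fgf13 at 34.6 ± 16.0, Fgf1 at 19.3 ± 9.75, Fgf7 at 13.0 ± 6.91 and Fgf18 at 3.71 ± 5.85. The order was different in PyMT. Fgfr1 alone stood high, at 164 ± 40.7 (SD, n = 12), above Fgfr2 at 33.7 ± 17.6, Fgf2 at 21.2 ± 13.9, Fgf7 at 15.9 ± 5.07, Fgfr3 at 13.7 ± 5.53, Fgf1 at 7.30 ± 5.16 and Fgf10 at 7.08 ± 5.73, and Fgf13, Fgf18 and Fgfr4 lay between 1.87 and 2.39. In FVB, Fgfr1 and Fgfr2 differed by less than the SD of either, as did Fgf10 and Fgf2.

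**Figure D1:**
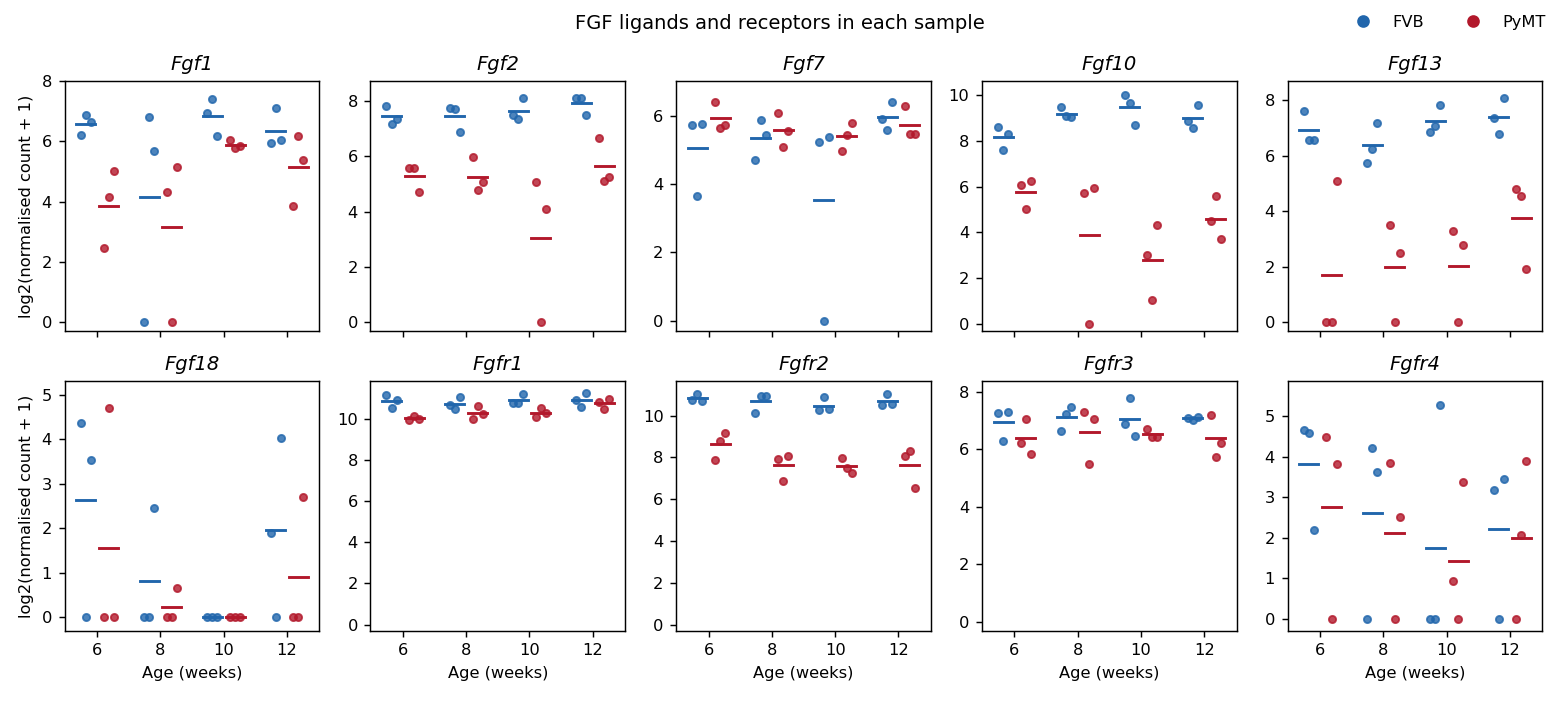
Level of each FGF ligand and receptor in every sample, as log2 of the normalised count plus 1 (y axis), by age in weeks (x axis), with FVB in blue, PyMT in red and the mean of 3 samples as a line. The 12 PyMT samples lie below the 12 FVB samples without overlap for Fgf2, Fgf10, Fgf13 and Fgfr2, and the genotypes overlap for the other 6 genes.

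Of the 10 genes, 4 (Fgf2, Fgf10, Fgf13 and Fgfr2) were lower in every PyMT sample than in any FVB sample, and none was higher in every PyMT sample. Of all 14918 genes tested, 7.22% were lower and 4.67% higher in PyMT without overlap. A gene was tested when at least 12 of the 24 samples had 1 CPM (counts scaled to library size) or more of it, which 8 of the 10 genes did, and Fgf18 and Fgfr4 did not. For each week a separate quasi-likelihood fit in edgeR set 3 PyMT samples against 3 FVB samples, p-values were adjusted by the Benjamini-Hochberg method across all tested genes, and a call needed an adjusted p under 0.05 together with more than a 2-fold difference. At week 6 Fgf2, Fgf10 and Fgfr2 were called lower, 3 of the 10 genes, where 10.0% of all tested genes were called, 6.46% lower and 3.58% higher. At week 8 the same 3 genes were called lower, against 9.95% of all tested genes called, 6.37% lower and 3.57% higher. At week 10 Fgf10, Fgf13 and Fgfr2 were called lower, against 13.9%, with 9.09% lower and 4.83% higher. At week 12 Fgf2, Fgf10, Fgf13 and Fgfr2 were called lower, against 20.7%, with 13.0% lower and 7.75% higher. No FGF ligand or receptor was called higher at any week. The weekly counts rested on few samples. Without PyMT replicate 1 at week 6 the count fell to 1, and at week 8 it fell to 1 without PyMT replicate 1 or 3 or without any 1 of the 3 FVB replicates. Fgfr2 was the gene that remained called in each of these cases.

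When the 4 weeks were fitted together with week as a factor, 5 of the 10 genes were called lower and none higher, where 25.7% of all tested genes were called, 17.2% lower and 8.51% higher. These 5 were Fgf1, Fgf2, Fgf10, Fgf13 and Fgfr2. The 11 libraries without packets held no PyMT sample of week 6 and no FVB sample of week 10. With week as a factor, a fit of these libraries therefore compares the genotypes at weeks 8 and 12 only, here and for the single genes below. In the 11 libraries without packets the count was 4, and Fgf1 was the gene that was no longer called.

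**Figure D2:**
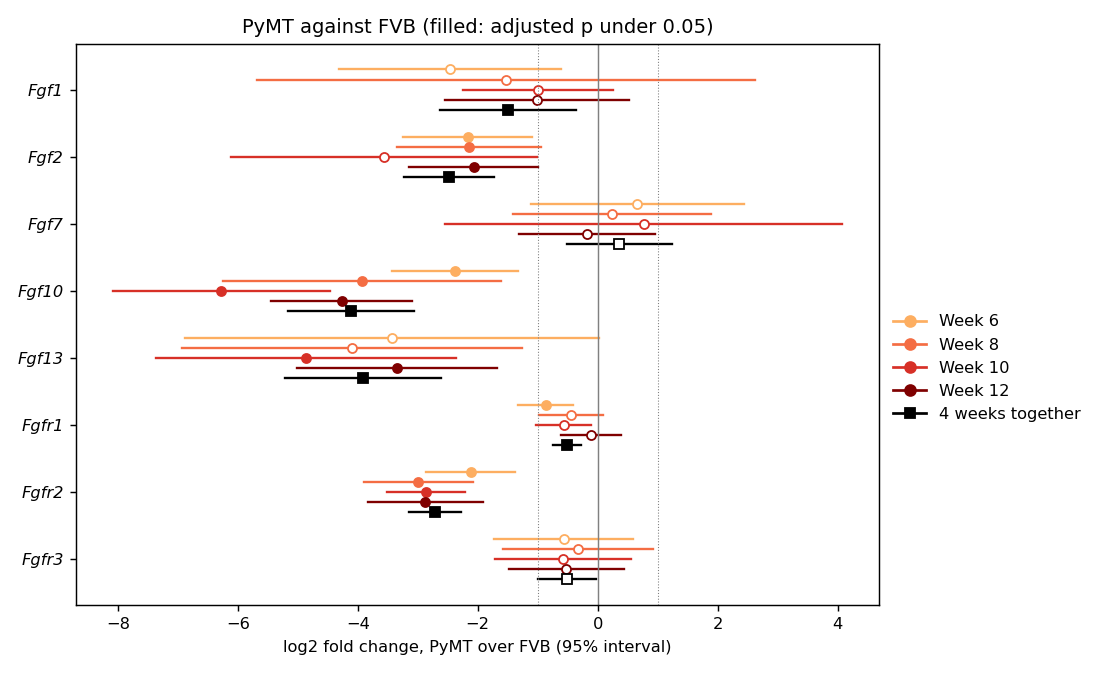
Log2 fold change of PyMT over FVB (x axis) with its 95% interval for the 8 genes tested (y axis), at each week and over the 4 weeks together, with filled symbols where the adjusted p was under 0.05 and dotted lines at a fold change of 2. The symbols of Fgf10, Fgf2, Fgf13 and Fgfr2 lie left of the dotted line at every week. Those of Fgf7 and Fgfr3 lie between the dotted lines, and those of Fgfr3 are all below 0.

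Fgf10, the stromal ligand of ductal branching (13:119458598-119580922 on mm9, plus strand), was lower in PyMT at every week and was called at each of them. In FVB its normalised counts were 393, 191 and 316 at week 6, 709, 537 and 524 at week 8, 1032, 809 and 418 at week 10, and 460, 382 and 759 at week 12. In PyMT they were 65.9, 31.3 and 74.9 at week 6, 51.5, 0 and 60.0 at week 8, 7.1, 1.0 and 18.8 at week 10, and 21.6, 47.0 and 12.0 at week 12. The highest PyMT sample, at week 6, was below the lowest FVB sample, also at week 6. The log2 fold change was -2.38 ± 0.46 at week 6 (SE; edgeR adjusted p = 0.0143). It reached -3.93 ± 1.00 at week 8 (edgeR adjusted p = 0.0445), -6.28 ± 0.78 at week 10 (adjusted p = 0.00175) and -4.27 ± 0.51 in late carcinoma (adjusted p = 8.49e-04). Over the 4 weeks together Fgf10 was 17.3-fold lower in PyMT (log2 fold change -4.12 ± 0.51, edgeR adjusted p = 3.41e-07), and in the 11 libraries without packets it was 14.5-fold lower. The call at week 6 was lost without PyMT replicate 1. The call at week 8 was lost without PyMT replicate 1 or 3 or any 1 of the FVB replicates, with log2 fold changes between -4.50 and -3.36 over the 6 samples left out in turn. Its exons overlap 123 bases of an antisense transcript, Gm16263.

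Fgf7, the keratinocyte growth factor (2:125860394-125916921, plus strand), which also comes from stroma, did not pass the test at any week. Its normalised counts were 52.2, 11.6 and 52.9 in FVB and 83.7, 49.0 and 52.2 in PyMT at week 6, and 59.2, 46.6 and 84.2 in FVB and 77.1, 42.7 and 43.4 in PyMT at week 12. At weeks 8 and 10 FVB ranged from 0 to 57.0 and PyMT from 30.3 to 65.8. The genotypes overlapped throughout. The log2 fold change over the 4 weeks was 0.36, with a 95% interval from -0.51 to 1.24 (edgeR adjusted p = 0.503), and -0.26 in the libraries without packets. To compare the 2 ligands directly, the log2 ratio of Fgf10 over Fgf7 was taken within each sample, a measure chosen after the values were seen. It ranged from -5.08 to 0.51 in PyMT, with a median of -1.06, and from 2.56 to 9.66 in FVB, with a median of 3.27, where the highest value came from the FVB sample with no Fgf7 read. The mean differed by -5.38 (two-sided permutation test over 12 and 12 samples, p = 2e-05, the smallest that 100000 resamples can give, adjusted over 2 ratios p = 2e-05). Fgf10 therefore exceeded Fgf7 in each FVB sample by a margin that no PyMT sample reached.

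Fgf2, basic FGF, which binds several receptors (3:37211441-37304299, plus strand), ranged in FVB from 117.5 to 277 normalised counts, with a median of 195. In PyMT its values were 47.2, 46.9 and 25.0 at week 6, 62.0, 26.3 and 32.3 at week 8, 32.9, 0 and 16.2 at week 10, and 99.7, 33.1 and 37.0 at week 12. The highest PyMT sample, at week 12, came close to the lowest FVB sample without reaching it. It was called in hyperplasia (log2 fold change -2.17 ± 0.47, SE; edgeR adjusted p = 0.0217), adenoma/MIN (-2.15 ± 0.52, adjusted p = 0.0384) and late carcinoma (-2.07 ± 0.47, adjusted p = 0.0132). At week 10, where PyMT replicate 2 had no read, it was -3.56 ± 1.10 (adjusted p = 0.0663), and without that sample it was -2.99 and called, as it also was by DESeq2 and voom. The call at week 6 was lost when any sample but PyMT replicate 2 was left out, that at week 8 when any sample was left out or with scaling by library size alone, and that at week 12 without PyMT replicate 3. Over the 4 weeks Fgf2 was 5.56-fold lower in PyMT (log2 fold change -2.48 ± 0.36, edgeR adjusted p = 4.0e-06). The exons of Fgf2 overlap those of Nudt6 on the other strand over 242 bases, of Cetn4 over 55 bases and of Bbs12 on the same strand over 32 bases.

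Fgf1, acidic FGF, which binds all of the receptors (18:38998327-39089058, minus strand), was low and variable. It ranged from 0 to 169 normalised counts in FVB, with a median of 87.3, and from 0 to 71.6 in PyMT, with a median of 33.0. The ranges overlapped, with 1 sample at 0 in each genotype. It was not called by edgeR at any single week (DESeq2 called it at week 6), with log2 fold changes of -2.46 ± 0.81 in hyperplasia, -1.53 ± 1.80 in adenoma/MIN, -1.0 ± 0.54 in early and -1.01 ± 0.67 in late carcinoma. With all weeks in 1 fit it was 2.82-fold lower (log2 fold change -1.5 ± 0.55, edgeR adjusted p = 0.0261). That call was lost in the libraries without packets, where the log2 fold change was -0.42 (adjusted p = 0.394), without replicate 2 (-0.96) or replicate 3 (-2.0) of every group, and with scaling by library size alone (-1.26, adjusted p = 0.0606).

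Fgf13, the intracellular FGF (X:56315322-56821248, minus strand), was lower in each PyMT sample than in any FVB sample. In FVB it was at 51.7 normalised counts or more in all 12 samples, with a median of 124 and a highest value of 271. In PyMT its values were 0, 0 and 33.5 at week 6, 10.5, 0 and 4.7 at week 8, 8.9, 0 and 6.0 at week 10, and 26.7, 22.4 and 2.8 at week 12. Only 5 of the 12 PyMT samples reached 1 CPM, and each of the 4 zeros came from a library with packets. It was called in early carcinoma (log2 fold change -4.86 ± 1.08, edgeR adjusted p = 0.0197) and late carcinoma (-3.34 ± 0.73, SE, adjusted p = 0.0114). The call at week 10 was lost without PyMT replicate 1 or 3, and that at week 12 in a fit of all 24 samples (adjusted p = 0.0666). Neither hyperplasia (-3.43 ± 1.5, adjusted p = 0.190) nor adenoma/MIN (-4.10 ± 1.23, adjusted p = 0.0716) gave a call in edgeR, while DESeq2 and voom called the latter. At week 6, without PyMT replicate 3, the other two PyMT samples had no read. With the weeks together Fgf13 was 15.0-fold lower in PyMT (log2 fold change -3.91 ± 0.63, edgeR adjusted p = 1.43e-05) and 17.6-fold lower in the libraries without packets.

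Fgf18, a ligand known from bone and lung (11:33017430-33047400, minus strand), was near the limit of detection. In all, 9 PyMT and 7 FVB samples had no read, and the highest values were 25.0 normalised counts in PyMT and 19.7 in FVB. In a library without packets, a count of 0 allows up to 3 reads by counting error alone, and in a library with packets it allows more. With a weaker filter (a CPM of 1 in at least 3 samples) that let Fgf18 into the fit, it was not called, with a log2 fold change over the weeks together of -1.15 and a 95% interval from -3.61 to 1.32 (edgeR adjusted p = 0.460).

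Fgfr2, the receptor of Fgf10 and Fgf7 in epithelium (7:137305965-140315033, minus strand), fell at every week and kept its call with each sample left out in turn. In FVB its normalised counts were 1744, 2072 and 1661 at week 6, 1116, 1998 and 1983 at week 8, 1221, 1877 and 1277 at week 10, and 1476, 2134 and 1511 at week 12. In PyMT they were 237, 444 and 580 at week 6, 246, 118 and 266 at week 8, 253, 179 and 150.1 at week 10, and 271, 316 and 91.5 at week 12. The PyMT values did not overlap those of FVB at any week, and the highest of them were at week 6. In edgeR the fall was smallest in hyperplasia (log2 fold change -2.12 ± 0.32, SE, adjusted p = 0.00545), with -2.99 ± 0.39 in adenoma/MIN (adjusted p = 0.00658), -2.86 ± 0.28 in early carcinoma (adjusted p = 6.87e-04) and -2.87 ± 0.42 in late carcinoma (adjusted p = 0.00186). Over the 4 weeks Fgfr2 was 6.58-fold lower in PyMT (log2 fold change -2.72 ± 0.21, edgeR adjusted p = 1.55e-10), and 7.28-fold lower in the libraries without packets. Counts per gene do not separate the epithelial from the mesenchymal splice form. The gene model spans a long interval of the annotation that holds many other genes, and this span may be an annotation error. It shares 314 exon bases with Ctbp2 on the same strand. The exon length of this model, 7796 bases, was used for the levels per kilobase and the receptor shares.

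Fgfr1, a receptor of stromal and epithelial cells that is amplified in some breast cancers (8:26624126-26686186, plus strand), was lower in PyMT by less than 2-fold. In PyMT its normalised counts were 988, 1140 and 999.6 at week 6, 999, 1558 and 1213 at week 8, 1102, 1468 and 1232.5 at week 10, and 1785, 1424 and 2000 at week 12. In FVB they ranged from 1415 to 2406, with a median of 1826. All 3 PyMT samples of week 6 lay below every FVB sample, and all 3 of week 12 lay inside the FVB range. In edgeR the difference was -0.87 ± 0.20 on the log2 scale in hyperplasia (SE, adjusted p = 0.0280), -0.44 ± 0.23 in adenoma/MIN (adjusted p = 0.255), -0.57 ± 0.20 in early carcinoma (adjusted p = 0.0964) and -0.11 ± 0.22 in late carcinoma (adjusted p = 0.747). Across the weeks it was -0.51 ± 0.11 (edgeR adjusted p = 6.13e-04), which with a fold change of 1.42 did not meet the call rule, and with scaling by library size alone it was -0.20 (adjusted p = 0.145) and turned to 0.21 at week 12. A second Ensembl entry for Fgfr1 lies wholly inside the exons of the first, over 761 bases, and had no read in any sample. Reads in that stretch may have been set aside as ambiguous, which would lower the Fgfr1 count in all samples.

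Fgfr3 (5:34064373-34079716, plus strand), known for its part in bone growth and bladder cancer, was present in all 24 samples at a low level. It ranged from 44.1 to 155.5 normalised counts in PyMT, with a median of 84.7, and from 77.9 to 216 in FVB, with a median of 136. The log2 fold change lay between -0.58 and -0.32 at the 4 weeks and was -0.51 over the weeks together, with a 95% interval from -0.99 to -0.03 (edgeR adjusted p = 0.0706). Fgfr4 (13:55254001-55270120, plus strand), which takes part in bile acid control in liver, had no read in 4 samples of each genotype and at most 21.4 normalised counts in PyMT and 37.6 in FVB. With the weaker filter Fgfr4 was tested and not called, with a log2 fold change over the weeks together of -0.69 and a 95% interval from -2.83 to 1.44 (edgeR adjusted p = 0.621).

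The receptor transcripts as a whole were lower in PyMT and were made up differently. The 4 receptors summed to 214 ± 33.7 normalised counts per kilobase (SD, n = 12) in PyMT and to 470 ± 53.8 in FVB (two-sided permutation test, p = 2e-05, the smallest the test can give). Shares of this sum within a sample do not depend on how libraries are scaled. Fgfr1 made up 76.3% ± 9.59 (SD, n = 12) of the receptor reads per kilobase in PyMT, with values from 59.0% to 90.4%, and 49.6% ± 7.82 in FVB, with values from 38.3% to 61.2%. Fgfr2 made up 16.1% ± 8.44 in PyMT and 45.6% ± 7.76 in FVB, where the lowest sample was at 34.0%. The Fgfr1 share was higher in PyMT by 26.7 percentage points and the Fgfr2 share fell by 29.4 percentage points (two-sided permutation test, p = 2e-05 for each, adjusted over the 4 receptors p = 4e-05). These 2 results are not independent, since the shares of a sample add up to the whole. The rise of Fgfr1 is one in share, since its level was 164 normalised counts per kilobase in PyMT and 232 in FVB. The 2 genotypes overlapped slightly, since the lowest Fgfr1 share and the highest Fgfr2 share in PyMT, 35.4%, came from 1 sample of week 6. The Fgfr3 share was 6.57% ± 2.84 in PyMT and 4.18% ± 1.03 in FVB (permutation test, adjusted p = 0.0117). By the same permutation test this gain was lost without replicate 1 of every group (p = 0.244) and in the libraries without packets (p = 0.121). It is a gain in share, since the level of Fgfr3 was not higher in PyMT. The libraries without packets differ in week between the genotypes, which the permutation test did not take into account. The Fgfr4 share was 0.948% and 0.648% (permutation test, adjusted p = 0.446).

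The shift was present at each week. The Fgfr1 share was higher in PyMT by 18.0, 29.6, 26.4 and 32.9 percentage points at weeks 6, 8, 10 and 12, and the Fgfr2 share differed by -21.4, -33.8, -28.5 and -34.1 percentage points in the same order. With 3 samples against 3, an exact permutation test cannot go below p = 0.1, which each of these 8 differences reached. The log2 ratio of Fgfr2 over Fgfr1, also chosen after the values were seen, ranged from -4.44 to -0.78 in PyMT and from -0.90 to 0.50 in FVB, and its mean differed by -2.29 (two-sided permutation test, p = 2e-05).

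**Figure D3:**
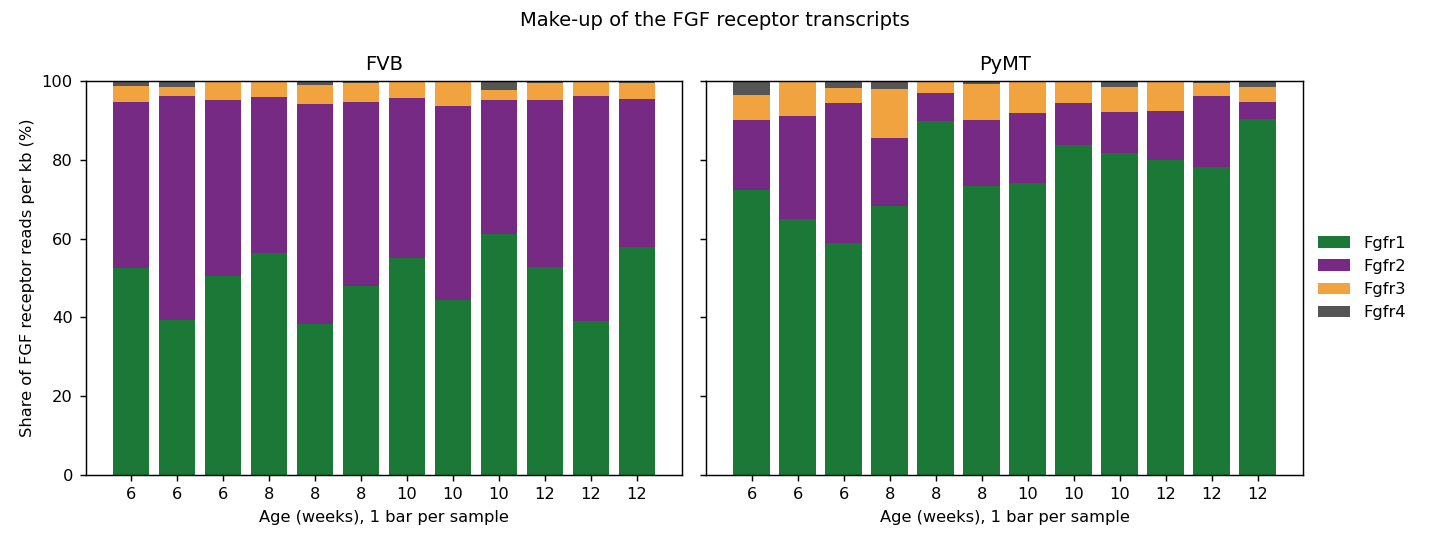
Share of each receptor in the summed FGF receptor reads per kilobase of exon (y axis, percent), with 1 bar per sample by age in weeks (x axis), FVB on the left and PyMT on the right. Fgfr1 takes 38.3% to 61.2% in the FVB samples and 59.0% to 90.4% in the PyMT samples.

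No change of the genotype difference between the weeks was called for any of the 8 genes tested, nor for any other gene, by edgeR's quasi-likelihood test of the 3 interaction terms (0% of all tested genes, with 494 genes at an unadjusted p under 0.05). DESeq2 called 17 genes and voom called 4, none of them among the FGF genes. Fgf10 had the smallest unadjusted p of the 8, 0.0216 (adjusted p = 1.0), with log2 fold changes that ran from -2.38 at week 6 to -6.28 at week 10. Within PyMT, week 12 against week 6 gave no call among the 8 genes and 0% of all tested genes, with 1004 genes at an unadjusted p under 0.05, while DESeq2 called 97 genes and voom 38, again none of them an FGF gene. Fgfr1 was higher at week 12 by 0.74 ± 0.21 on the log2 scale (edgeR unadjusted p = 0.00224, adjusted p = 0.311). Fgfr2 was lower by 0.89 ± 0.40 on the same scale (log2 fold change -0.89, unadjusted p = 0.0362, edgeR adjusted p = 0.682). Every PyMT library of week 6 had packets, so age and packets cannot be fully told apart in this comparison. Within FVB, week 12 against week 6 gave no call either (0% of all tested genes, 625 genes at an unadjusted p under 0.05, 19 genes by DESeq2 and 58 by voom). Fgfr1 stood at 1892 normalised counts at week 6 and 1941 at week 12 there, and Fgf10 at 299.9 and 534, with log2 fold changes of 0.003 ± 0.21 and 0.80 ± 0.73.

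In the order of the 8 groups by mean level, the 4 FVB groups stood above the 4 PyMT groups for Fgf2, Fgf10, Fgf13 and Fgfr2. The ranges of neighbouring groups overlapped everywhere except at the step from the lowest FVB group to the highest PyMT group. For Fgf10 that step lay between FVB at week 6, with a mean of 299.9 normalised counts, and PyMT at week 6, with 57.4. For Fgfr2 it lay between FVB at week 10, with 1458, and PyMT at week 6, with 420. For the other 6 genes each group overlapped its neighbours in the order.

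The genes around the receptors were described from lists of co-receptors, heparan sulfate enzymes, cascade genes and feedback genes, with counts over the 4 weeks together. Among all tested genes the median log2 fold change was -0.03, 8.51% were called higher and 17.2% lower. Without overlap of the genotypes, 4.67% were higher in PyMT and 7.22% lower. With scaling by library size alone the median of all genes was 0.26.

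Of 16 further FGFs, only Fgf11, an intracellular FGF like Fgf13, passed the filter. It ranged from 0 to 42.8 normalised counts in PyMT and from 59.0 to 152 in FVB, without overlap, and fell with a log2 fold change of -2.65 ± 0.53 (SE; edgeR adjusted p = 1.79e-04). Of the 19 co-receptors and binding proteins, 15 were tested, 0 were called higher and 6 lower, with a median log2 fold change of -0.88. In the libraries without packets 2 were called higher and 5 lower, with scaling by library size alone 1 higher and 5 lower, and at week 12 by itself 1 higher and 6 lower. Klb, the beta-Klotho co-receptor of the endocrine FGFs, ranged from 0 to 85.1 normalised counts in PyMT and from 290 to 815 in FVB, without overlap, and its log2 fold change was -4.01 ± 0.45 (adjusted p = 6.44e-08). Gpc3, a cell surface heparan sulfate proteoglycan, had medians of 78.1 and 466 normalised counts and a log2 fold change of -2.44 ± 0.35 (adjusted p = 2.56e-06). Of the 11 enzymes that build, trim or sulfate heparan sulfate, all were tested, 0 were called higher and 3 lower, with a median of -0.47. These included Hs6st2, a 6-O-sulfotransferase, at -2.55 ± 0.77 (edgeR adjusted p = 0.00749) and Hpse, heparanase, at -1.53 ± 0.37 (adjusted p = 0.00145). The call of Hs6st2 was lost in the libraries without packets (adjusted p = 0.0524), that of Hpse without replicate 1 or 3 of every group, and with scaling by library size alone 3 of the 11 enzymes were called higher and 2 lower. By adjusted p alone, 3 enzymes were higher and 5 lower, where 3525 of all 14918 tested genes were higher and 4095 lower. Ndst1 and Hs2st1, named after their values were seen, were higher in PyMT without overlap, and the other enzymes overlapped. Ndst1 ranged from 2343 to 3453 normalised counts in PyMT and from 1193 to 1841 in FVB. Hs2st1 ranged from 671 to 896 in PyMT and from 326 to 577 in FVB.

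Among 22 genes of the cascade from Frs2 to the MAP kinases, 1 was called higher and 0 lower. The median was -0.15, and it turned to 0.15 with scaling by library size alone. The gene called was Hras1, a RAS GTPase, which ranged from 668 to 1970 normalised counts in PyMT and from 93.3 to 283 in FVB, a log2 fold change of 2.41 ± 0.18 (SE; edgeR adjusted p = 8.00e-11). Of the 14 feedback inhibitors and target genes of FGF and MAPK signalling, 13 were tested, 3 were called higher and 1 lower, with a median of 0.36. Counts divided by the packet size and voom each gave 3 higher and 2 lower. By adjusted p alone 5 were higher and 3 lower, where 3525 of all 14918 tested genes were higher and 4095 lower. Spry1 and Spry4, named after their values were seen, had lower medians in PyMT (142 against 299 and 86.8 against 185 in FVB). Spry2 had a higher median (248 against 193). The genotypes overlapped for each of them, and none was called in the main fit. Etv1, an ETS factor of the PEA3 group, ranged from 367 to 2006 normalised counts in PyMT and from 51.1 to 166 in FVB, and rose with a log2 fold change of 3.23 ± 0.24 (adjusted p = 1.13e-10). Dusp5, a phosphatase of nuclear ERK, ranged from 284 to 1086 in PyMT and from 0 to 134 in FVB, and rose by 3.08 ± 0.42 (adjusted p = 1.41e-06). Etv5, named after its values were seen as the other gene called higher, ranged from 700.3 to 2144 in PyMT and from 173 to 450 in FVB. Il17rd, an inhibitor of FGF signalling also called Sef, fell from a median of 259 normalised counts in FVB to 124 in PyMT (log2 fold change -1.28 ± 0.18, adjusted p = 1.71e-06). Neither genotype overlapped the other for Hras1, Etv1, Dusp5, Etv5 or Il17rd. Of all tested genes, 4.67% were higher and 7.22% lower in PyMT without overlap. In the cascade, Plcg1 and Ptpn11, named after their values were seen, were lower in PyMT without overlap, though not called. Plcg1 ranged from 704 to 1206 normalised counts in PyMT and from 1330 to 2086 in FVB. Ptpn11 ranged from 1022 to 1590.74 in PyMT and from 1590.97 to 2459 in FVB. ETS factors, dual-specificity phosphatases and RAS genes also answer to other receptors that use the MAPK cascade. By the paper's account, the middle T antigen, which is not a receptor, also acts on Shc and turns on the MAPK pathway. Which of these signals the genes follow was not tested, and these counts do not show it.

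**Figure D4:**
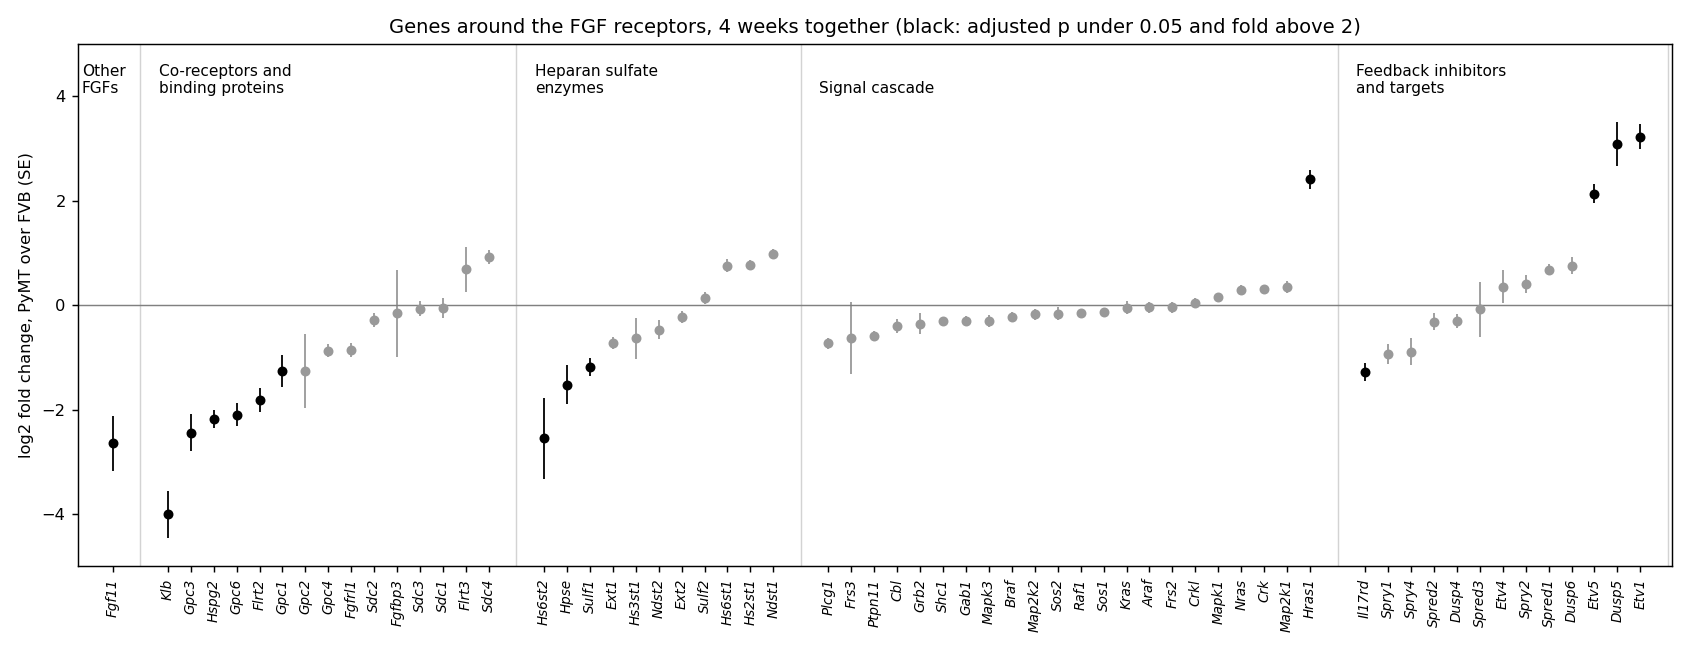
Log2 fold change of PyMT over FVB over the 4 weeks together (y axis, bars are SE) for the genes tested in the 5 lists around the FGF receptors (x axis), with called genes in black. The called co-receptors and heparan sulfate enzymes all lie below 0, and Etv1, Dusp5 and Etv5 lie above 2.

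The genes of most similar pattern were found by the root mean square difference of centred log2(normalised count + 1) values over the 24 samples, and they are named as a description. For Fgf10 they were Negr1 (0.65), Foxa1 (0.69) and Rasgrp2 (0.79), against a median of 2.82 over all tested genes. For Fgf2 they were Cyp2j6 (0.65), Reep6 (0.69) and Tfpi (0.69), for Fgf13 Arhgap20 (0.72), Rhbdl3 (0.91) and Darc (1.08), and for Fgfr2 Nhsl2, Cxcl12 and Ptprb (0.43 each). The medians over all tested genes were 1.94, 2.77 and 1.66 for these 3. For Fgfr1 the nearest genes were Spag9 (0.21), Atp9a (0.24) and S100a16 (0.25), for Fgfr3 Arl8a (0.39), A830010M20Rik (0.39) and Add1 (0.40), for Fgf7 Gm5963 (0.65), Parvg (0.74) and 2210404J11Rik (0.75), and for Fgf1 Ankrd6 (1.06), Xk (1.06) and Naprt1 (1.08).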

How the data were processed

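Total RNA from mammary tissue of 12 PyMT and 12 FVB samples had been depleted of ribosomal RNA and sequenced as directional libraries. After adapter trimming the authors used GSNAP for alignment to mm9 and HTSeq for counting by Ensembl gene (the strand setting is not given in the sources used here), and they deposited raw counts that were not normalized. Groups came from the genotype and week in the sample names, and by the study's methods the 3 samples of a group came from 3 mice.

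Symbols, lengths and mm9 coordinates came from GENCODE M1, which has a model for 37205 of the 37991 genes. Spry3, 1 of the list genes, has no model there. Promoter sequences came from RefSeq on GRCm38.p6, another build than that of the gene coordinates, and were read for display only. Of 2 Ensembl entries with the symbol Fgfr1 or Flrt3, that with more reads was used. The 14918 genes that reached 1 CPM in 12 or more of the 24 samples were tested with edgeR 4.0.16 in R 4.3.3, using TMM scaling, the quasi-likelihood test and Benjamini-Hochberg adjustment. Calls needed an adjusted p under 0.05 and more than a 2-fold difference. For normalised counts, size factors of DESeq2 were divided out, and a pseudocount of 1 was added before log2. Receptor shares used reads per kilobase of the union of exons and permutation tests with 100000 resamples in SciPy 1.17.1.

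Totals of 6969375 to 13516601 counts limit the precision of low genes. A count of 0 allows up to 3 reads by counting error only in a library without packets, and more in a library with packets. A packet size was the peak, at 5 reads or more, of the histogram of counts over genes after smoothing (SD of 1.5 reads). The fits were tested on simulated data with 4-fold changes. Alternatives were RLE and library size scaling, other filters, DESeq2 1.42.0, limma 3.58.1 voom with quality weights, no minimum fold, counts divided by the packet size, libraries without packets, all 24 samples in 1 fit, a replicate block, each replicate left out, and other gene lengths for the shares. The 2 log2 ratios between genes and their alternatives were added after seeing the data. The named genes were the 10 FGF genes, of each pathway list up to 2 genes that rose most and 2 that fell most among those called over the 4 weeks together, and the 3 genes of most similar pattern for each FGF gene tested. The members and lists were chosen with earlier results of these data known. No expression of the transgene itself was analysed here.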

Additional observations from a re-analysis of the deposited data

How the results depend on the processing

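Of 1077 alternative values for single genes, 1000 kept the direction and the side of the threshold, 33 kept the direction and lost the call, 18 kept it and gained a call, and 26 turned, none of them in a comparison where the gene was called. The values for the change of the difference between weeks have no direction, and for them only the side of the threshold was compared. Of 156 for counts, shares and ratios, 146 were the same, where a count of calls that moved by 1 gene was taken as the same. Such moves were not rare, as with DESeq2, which called 4 FGF genes at weeks 6, 8 and 10 where the main fit called 3. The count of FGF genes called ranged over samples left out from 1 to 3 at week 6, 1 to 3 at week 8, 2 to 4 at week 10 and 3 to 4 at week 12, from 4 to 5 over the weeks together, and stayed at 0 for the changes between weeks. The fit with the replicate block gave 1 FGF gene at week 8, where Fgf2 (adjusted p = 0.0587) and Fgf10 (0.0568) lost their calls, and Fgf2 at week 6 (0.0544) and Fgf1 over the weeks together (0.0880) lost theirs. Same-numbered samples correlated by -0.025 to 0.18, so the numbers were not taken as pairs. The share of Fgfr3 differed by 2.90 percentage points in libraries without packets, no longer past the threshold, and by 1.39 to 3.15 with a replicate left out, and that of Fgfr4 by -0.045 to 0.71. Scaling by library size alone raised the median of all genes from -0.03 to 0.26 and changed the calls over the weeks together from 1269 higher and 2571 lower to 2050 and 2002. It turned Fgf7 to 0.15 and Fgfr1 to 0.21 at week 12, and Fgfr1 in FVB week 12 against 6 to -0.0025. Libraries without packets turned Fgf7 over the weeks together to -0.26. Counts over packet size turned Fgf13 in PyMT week 12 against 6 to -0.38 and Fgfr3 in FVB to -0.033, and the replicate block turned Fgfr3 in PyMT to -1.8e-04 and Fgfr1 in FVB to -0.0097. With a sample left out, the ranges that crossed 0 were, against FVB, Fgf7 at week 8 (-0.057 to 0.54) and week 12 (-0.50 to 0.083), Fgfr3 at week 8 (-0.65 to 0.062) and Fgfr1 at week 12 (-0.30 to 0.071). In PyMT week 12 against 6 they were Fgf2 (-0.14 to 0.79), Fgf7 (-0.49 to 0.11), Fgf13 (-0.023 to 7.16) and Fgfr3 (-0.44 to 0.46), and in FVB Fgf1 (-0.67 to 0.016), Fgfr1 (-0.17 to 0.16) and Fgfr3 (-0.24 to 0.18). The cause of these turns was not tested. Depth limits Fgf18, Fgfr4 and, in PyMT, Fgf13.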

Other observations

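Fgf14, an FGF outside the 10 genes, which binds sodium channels as Fgf13 does, did not pass the filter and was not tested. It had no read in 8 of 12 PyMT samples and in 3 of 12 FVB samples, with a mean of 2.24 ± 4.94 normalised counts (SD, n = 12) in PyMT and 21.9 ± 17.9 in FVB, and the genotypes overlapped. Fgf12, of the same group, stayed at or below 2.94 normalised counts in PyMT and 10.8 in FVB. Fgf16, a secreted ligand, had a median of 8.22 normalised counts in PyMT and 7.27 in FVB. Fgf3, Fgf6, Fgf15 and Fgf22 had no read in any of the 24 samples. These genes were picked after their values were seen.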
